A study of Caenorhabditis elegans with 12 samples.

Results

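The genes described here are 8 genes of Caenorhabditis elegans that act in moulting and in the cross-linking of the cuticle, followed through loss of the miR-58 microRNA family. They were taken by name, and 7 of the 8 names stand in the authors' table of 16309 genes. The remaining one, mlt-3, is listed under its sequence name Y39C12A.1 and was matched through the annotation, so all 8 genes have values. The study compared whole animals at the late L4 stage, with 3 samples for each of 4 genotypes. The strain MT15024 carries mir-58(n4640) on chromosome IV and is called mir-58 here. The double mutant, strain MT18409, carries the same allele and nDf53 on chromosome III, which removes mir-80. The quadruple mutant, strain MT15563, carries both of these and nDf54 on the X chromosome, which removes mir-81-82. The wild type was N2 Bristol. All animals were fed bacteria with light lysine and arginine. Per the labels, mir-58 and wild type were harvested 33 h after transfer to food, the double mutant 6 h and the quadruple mutant 15 h later than wild type. Genotype and time of collection therefore cannot be told apart in the double and quadruple mutants.

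Nematodes replace their cuticle at the end of each larval stage. The epidermis secretes a new matrix under the old cuticle, the connections between them are cut, and the old cuticle is shed. The late L4 stage comes before the last moult, in which the adult cuticle is made. Collagens and other proteins of the new cuticle are joined by tyrosine cross-links, for which a dual oxidase supplies hydrogen peroxide and haem peroxidases carry out the joining. Many genes of this process rise and fall once in each larval stage, so their level in a whole-animal sample depends on the exact stage. Animals with defects in mlt genes fail to shed the old cuticle, and those with defects in bli genes form fluid-filled blisters in it.

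The values are the authors' log2 fold changes of each mutant over wild type and their adjusted p-values. A gene was called higher or lower at an adjusted p under 0.05. Per-sample values were not analysed here, and so depth, the spread between replicates and overlap between groups are unknown. A fold change that rests on few reads looks the same here as one that rests on many. The labels do not state that replicates were separate cultures, so the p-values may cover technical spread only. In bulk samples, fewer epidermal cells and less RNA per cell cannot be told apart. All 3 comparisons use the same wild-type samples, so a gene's values in them are not independent of each other.

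Among the 8 genes the calls fell on bli-5 and mlt-7, all of them lower in the mutants. The gene bli-5, which encodes a Kunitz-type domain, was called lower in every mutant. The peroxidase gene mlt-7 was called lower in the quadruple mutant. None of the 8 was called higher in any mutant. In mir-58, 1 of the 8 was called lower, where 5.79% of all listed genes were called lower and 1.65% higher. The double mutant also gave 1 lower call among the 8, with 5.86% of listed genes lower and 10.5% higher. The quadruple mutant gave 2 lower calls, with 9.82% of listed genes lower and 14.2% higher. With so few genes these counts are a description and set the group apart from no other genes. Under a threshold of 0.01, bli-5 in the quadruple mutant was the 1 call left. The median log2 fold change of the 8 genes was 0.035 for mir-58, 0.0 for the double and -0.12 for the quadruple mutant. Over all listed genes the medians were -0.06, 0.08 and 0.11 in the same order.

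**Figure D1:**
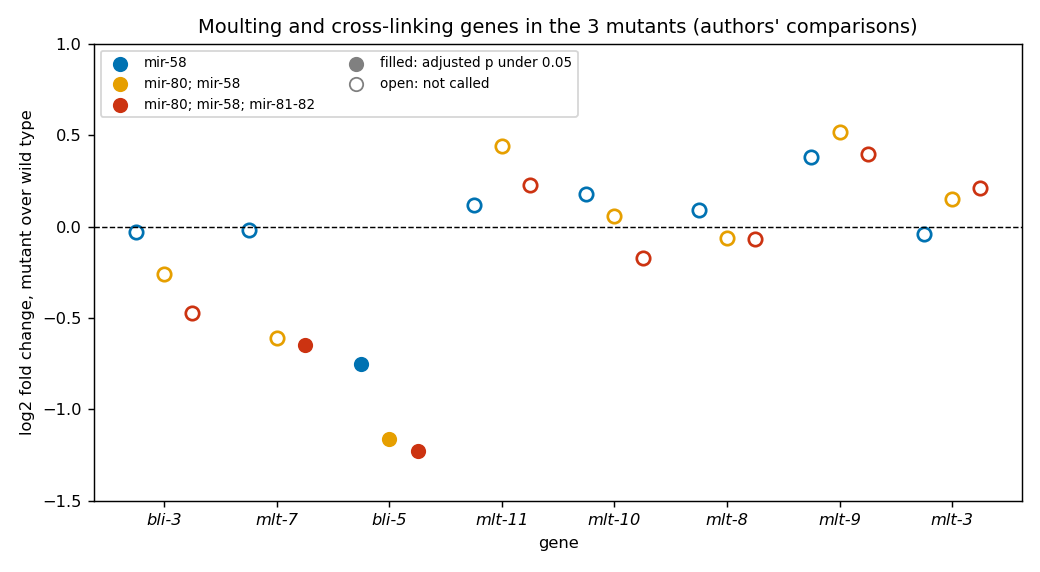
Log2 fold change over wild type (vertical axis) of each of the 8 genes (horizontal axis) in the mir-58 (blue), double (orange) and quadruple mutant (red), 1 point per comparison of the authors' deposited table. Filled points have an adjusted p under 0.05, and they are the 3 points of bli-5, from -0.75 to -1.23, and the quadruple-mutant point of mlt-7 at -0.65.

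The cross-linking enzymes come first. BLI-3 is the dual oxidase that makes hydrogen peroxide at the cuticle. For bli-3 the authors' deposited table gives -0.03 (mir-58), -0.26 (double) and -0.47 (quadruple), with adjusted p of 1, 0.634 and 0.213. None of these was called, although the quadruple value lay below the interquartile range of all listed genes, which ran from -0.37 to 0.68. In the annotation F53G12.18, which has no listed values, overlaps bli-3 on the opposite strand. The adjacent gene duox-2 is a close copy of bli-3, and reads of one may have been assigned to the other, which makes both values uncertain. By the authors' deposited table duox-2 (listed as F53G12.3) stood at -1.86, -1.33 and -2.05, and it was not called.

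MLT-7 is a haem peroxidase that acts with BLI-3 in cuticle cross-linking. The values of mlt-7 in the authors' deposited table were -0.02 in mir-58, -0.61 in the double mutant and -0.65 in the quadruple mutant. In the quadruple mutant the adjusted p was 0.031 and the level 63.7% of wild type (computed from the authors' deposited table). In the double mutant the level was 65.5% of wild type, with an adjusted p of 0.0549 in the authors' deposited table that missed the threshold. The double and quadruple values thus lay close together on either side of the threshold, and their difference of -0.04 has no test. In mir-58 the adjusted p was 1. No annotated protein-coding gene overlaps mlt-7.

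The genes of proteins with Kunitz-type domains include the lowest values of the group. BLI-5 has a Kunitz-type domain, a fold known for blocking serine proteases, and its loss blisters the cuticle. The authors' deposited table has bli-5 at -0.75 in mir-58, -1.16 in the double mutant and -1.23 in the quadruple mutant, with adjusted p of 0.049, 0.0192 and 0.00926. These correspond to 59.5%, 44.8% and 42.6% of the wild-type level. The mir-58 call lies just under the threshold. The share of all listed genes that stood lower than bli-5 was 10.4% (mir-58), 3.7% (double) and 4.6% (quadruple). The gene cope-1 overlaps bli-5 on the opposite strand, and whether strand was used in counting is not given in the sources used here. From the authors' deposited table, cope-1 was at 0.0, 0.14 and 0.1 in the 3 mutants and was not called.

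MLT-11 is a large secreted protein with many Kunitz-type domains. For mlt-11 the authors' deposited table lists 0.12 (mir-58), 0.44 (double) and 0.23 (quadruple), with adjusted p of 0.901, 0.39 and 0.712. All 3 values lay in the interquartile range of listed genes. Each was above 0, where every value of bli-5 was below it.

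The other moulting genes were found through moulting defects after their loss. MLT-10 is the founder of a nematode protein family, and its promoter is widely used to report moulting. The authors' deposited table places mlt-10 at 0.18 (mir-58), 0.06 (double) and -0.17 (quadruple), with adjusted p of 0.621, 0.958 and 0.822. It lay between 88.9% and 113% of wild type and in the interquartile range of listed genes each time. In the annotation mlt-10 overlaps lips-7 and T27A1.3 on the same strand, so reads at its ends could be shared with them. By the authors' deposited table lips-7 stood at -0.09, -0.04 and 0.25, and it was not called.

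Also on chromosome II lies mlt-8, which the authors' deposited table puts at 0.09 (mir-58), -0.06 (double) and -0.07 (quadruple), with adjusted p of 0.861, 1 and 0.969. It was not called, and no value lay further than 0.09 from 0. On the X chromosome, mlt-9 had the highest value of the 8 genes in each mutant. The authors' deposited table lists mlt-9 at 0.38 (mir-58), 0.52 (double) and 0.4 (quadruple), with adjusted p of 0.227, 0.124 and 0.239, so it was not called.

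For mlt-3, found as Y39C12A.1, the authors' deposited table shows -0.04 (mir-58), 0.15 (double) and 0.21 (quadruple), with adjusted p of 1, 0.91 and 0.768. In the annotation F35G2.5 overlaps mlt-3 on the opposite strand. By the authors' deposited table F35G2.5 was at -0.36, 0.47 and 0.5 and was not called. The gene mlt-3 also lies next to phy-2, the gene of a collagen prolyl hydroxylase. The values of phy-2 in the authors' deposited table were -0.29, -0.2 and -0.34, none of them called. The genes mlt-3, mlt-8, mlt-9 and mlt-10 gave no call in any mutant. Without the spread between replicates, that does not show that their levels equalled wild type.

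The genes differed among themselves by 1.13 log2 units from lowest to highest in mir-58, by 1.68 in the double and by 1.63 in the quadruple mutant. The lowest was bli-5 and the highest mlt-9 every time. In the quadruple mutant the order from low to high was bli-5, mlt-7, bli-3, mlt-10, mlt-8, mlt-3, mlt-11 and mlt-9. Whether neighbours in this order differ cannot be judged, since the spread is unknown. In mir-58 the values of mlt-3, bli-3 and mlt-7 lay between -0.04 and -0.02, and bli-5 stood lower than the other 7 genes.

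Wild type cancels when the fold changes of 2 mutants are subtracted, which gives a difference between successive genotypes, with no test. For the double mutant minus mir-58 the difference was -0.59 for mlt-7, -0.41 for bli-5 and -0.23 for bli-3, and it was 0.32 for mlt-11. The interquartile range of all listed genes was -0.28 to 0.45 in this step. For the quadruple minus the double mutant, 7 of the 8 genes had a negative difference, the lowest being -0.23 for mlt-10, and mlt-3 had 0.06. Of the negative ones, mlt-8 had -0.01 and mlt-7 had -0.04. All listed genes had an interquartile range of -0.17 to 0.2 in this step. The median difference of the 8 genes was -0.135 for double minus mir-58 and -0.095 for quadruple minus double, where all listed genes had medians of 0.04 and 0.0. The values of 5 genes, bli-3, mlt-7, bli-5, mlt-10 and mlt-8, decreased from mir-58 through the double to the quadruple mutant, as did those of 24.9% of all listed genes.

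Further genes were read from chosen lists of genes of moulting and the cuticle. The list named cross-linking partners also holds a peroxiredoxin, a catalase and a peroxidasin gene, so it mixes functions. Of its 9 genes with values, none was called in mir-58. All calls elsewhere were lower, 2 for the double and 3 for the quadruple mutant. The list medians were -0.15 (mir-58), -0.26 (double) and -0.4 (quadruple), where all listed genes had -0.06, 0.08 and 0.11. Of all listed genes, 5.79%, 5.86% and 9.82% were called lower in the same order. With so few genes per list, the counts here and in the lists below are a description. DOXA-1 is the maturation factor of the dual oxidase. Its gene doxa-1, listed as C06E1.3, is at -0.32 (mir-58), -1.11 (double) and -1.43 (quadruple) in the authors' deposited table, with adjusted p of 0.428, 0.00113 and 2.64e-05. The haem peroxidase gene skpo-3, listed as F32A5.2, is at -0.39 (mir-58), -1.01 (double) and -1.3 (quadruple) in the authors' deposited table, with adjusted p of 0.189, 2.51e-04 and 2.23e-06. Both genes were thus called lower in the double and quadruple mutants.

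TSP-15 is a tetraspanin of the same oxidase complex. The authors' deposited table has tsp-15 at -0.04 (mir-58), -0.26 (double) and -0.4 (quadruple) with no call, side by side with bli-3 at -0.03, -0.26 and -0.47. The peroxiredoxin gene prdx-2, whose product removes hydrogen peroxide, was called lower in the quadruple mutant, with -0.75 and an adjusted p of 0.0125 by the authors' deposited table. The peroxidase genes skpo-1 and skpo-2 gave no call, and their double-mutant values in the authors' deposited table were 1.16 and -0.18. The peroxidasin gene pxn-1 and the catalase gene ctl-2 were not called either.

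**Figure D2:**
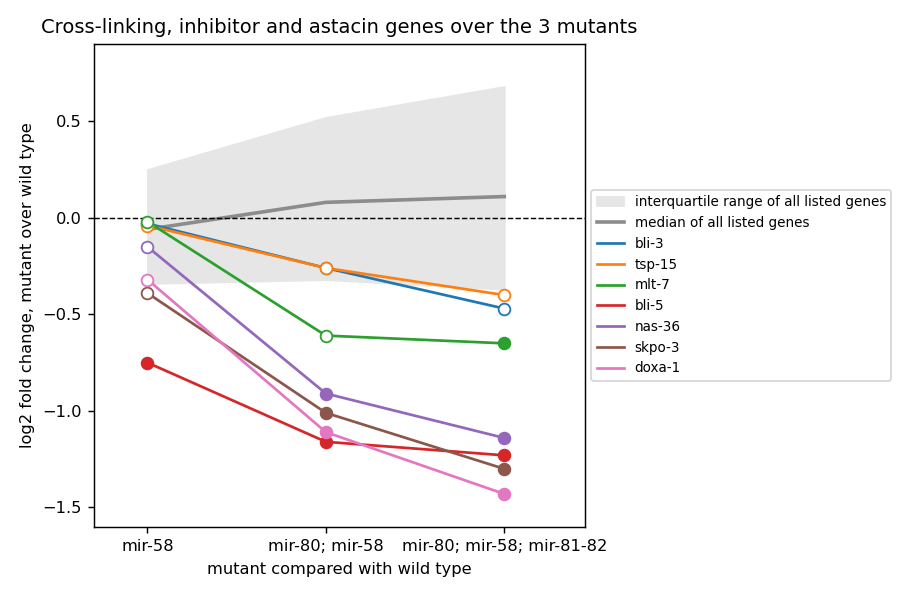
Log2 fold change over wild type (vertical axis) of chosen cross-linking, Kunitz-domain (titled inhibitor) and protease genes in the 3 mutants (horizontal axis). Values are from the authors' deposited table. Among genes of these kinds not drawn, mlt-11, skpo-1 and nas-37 had positive double-mutant values, and skpo-2 and nas-7 had negative ones. The interquartile range of all listed genes is in grey and their median is a grey line. Filled points have an adjusted p under 0.05. The genes doxa-1, skpo-3, nas-36 and bli-5 lie between -0.91 and -1.43 in the double and quadruple mutants, below mlt-7, and no point of bli-3 or tsp-15 is filled.

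Proteases cut the old cuticle and process new matrix. Of 9 listed, none was called in mir-58, 1 was called lower for the double and 2 for the quadruple mutant, with 8 of 9 values below 0 in each. Among all listed genes, 55.3% (mir-58), 44.4% (double) and 43.9% (quadruple) had values below 0. The share called lower was 5.79%, 5.86% and 9.82% in the same order. The astacin protease gene nas-36 is needed to shed the cuticle. For nas-36 the authors' deposited table gives -0.15 (mir-58), -0.91 (double) and -1.14 (quadruple), with adjusted p of 0.857, 0.0113 and 9.70e-04. The related gene nas-37, which also acts in shedding, was without a call, at 0.5, 0.4 and -0.01 by the authors' deposited table. The other call was nas-7 in the quadruple mutant, with -0.77 and an adjusted p of 0.0442 by the authors' deposited table.

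Relatives of mlt-10 gave higher calls and no lower ones. Of the 13 mltn genes 11 were found, all under sequence names, and 1 was called higher in mir-58, 3 for the double mutant and 3 for the quadruple. Of all listed genes, 1.65% (mir-58), 10.5% (double) and 14.2% (quadruple) were called higher. With so few relatives the counts are a description. The authors' deposited table has mltn-10 (F19H8.5) at 1.61 (mir-58), 2.4 (double) and 3.3 (quadruple), with adjusted p of 0.084, 0.00502 and 1.55e-06. It had the largest value of the called relatives in the double and quadruple mutants. For mltn-12 (C53B4.8) the authors' deposited table gives -0.26 (mir-58), 1.26 (double) and 1.43 (quadruple), with adjusted p of 0.769, 0.0144 and 0.00181. The third call in the quadruple mutant was mltn-9 (F19H8.4), with 0.81 and an adjusted p of 0.0106 by the authors' deposited table. The relative mltn-1 (F32A11.7) was called in mir-58 and the double mutant, with 0.99 and 0.87 by the authors' deposited table (adjusted p = 3.38e-05 and 0.005). Their founder mlt-10 was not called.

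Regulators of moulting gave no call in mir-58 or the double mutant, and 2 higher and 1 lower call of 10 in the quadruple mutant. In that mutant 14.2% of all listed genes were called higher and 9.82% lower. NHR-23 is the nuclear receptor that drives expression of many moulting genes. In the quadruple mutant nhr-23 had 0.73 and an adjusted p of 0.0238 by the authors' deposited table. The gene pan-1, which encodes a leucine-rich repeat protein, had 0.83 and an adjusted p of 0.00791 there, also from the authors' deposited table. The gene called lower was kin-20, a casein kinase gene of the developmental clock, with -0.69 and an adjusted p of 0.0262 in the authors' deposited table. The clock gene lin-42 was not called, with 0.26 (mir-58), 0.55 (double) and 0.54 (quadruple) by the authors' deposited table.

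In the list of endocytosis and sterol uptake, lrp-1 was the 1 gene of 12 called, and it was higher in every mutant. Of all listed genes, 1.65% (mir-58), 10.5% (double) and 14.2% (quadruple) were called higher. The gene lrp-1 encodes a megalin-like receptor that epidermal cells need to complete moulting. For lrp-1 the authors' deposited table gives 0.99 (mir-58), 0.71 (double) and 1.22 (quadruple), with adjusted p of 9.79e-06, 0.0189 and 8.45e-06. The kinase gene nekl-3, whose product works with MLT-3, was not called, with a quadruple-mutant value of -0.7 by the authors' deposited table. The related kinase gene nekl-2 and its partner genes mlt-2 and mlt-4 were not called either, at 0.25, 0.05 and -0.14 in that mutant by the authors' deposited table.

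Of 8 apical matrix genes, 1 was called in each mutant. For comparison, 5.79% of all listed genes were called lower in mir-58. The share called higher was 10.5% (double) and 14.2% (quadruple). The lipocalin gene lpr-3 was higher in the double and quadruple mutants, with 0.89 and 0.86 by the authors' deposited table (adjusted p = 0.00386 and 0.00594). A leucine-rich repeat gene, sym-1, was lower in mir-58, with -0.51 and an adjusted p of 0.0311 by the authors' deposited table. The zona pellucida domain genes noah-1 and noah-2 were not called in any mutant.

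Of 8 collagen-processing genes, 2 were called lower in mir-58, 1 higher in the double, and 2 lower and 1 higher in the quadruple mutant. Over all listed genes these shares were 5.79% lower in mir-58 and 10.5% higher in the double mutant. In the quadruple mutant they were 9.82% lower and 14.2% higher. The prolyl hydroxylase gene dpy-18 was lower in mir-58 and the quadruple mutant, with -0.53 and -0.92 by the authors' deposited table (adjusted p = 0.0415 and 0.00266). Its partner subunit gene pdi-2 was lower in the quadruple mutant, with -0.82 and an adjusted p of 0.0332 by the authors' deposited table. The remaining calls are those of phy-3, a prolyl hydroxylase gene known from the spermatheca and embryo. For phy-3 the authors' deposited table gives -2.73 (mir-58), 2.36 (double) and 2.05 (quadruple), with adjusted p of 0.021, 0.0031 and 0.0136.

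**Figure D3:**
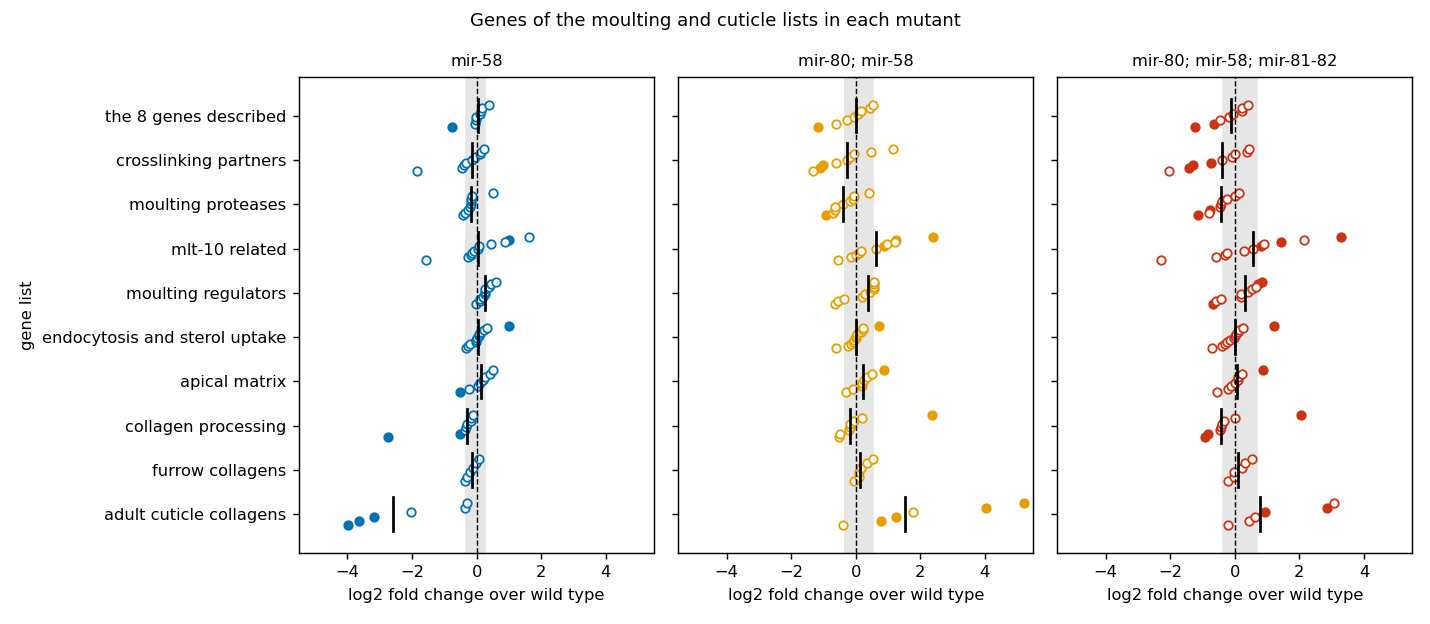
Log2 fold change over wild type (horizontal axis) of each listed gene, by gene list (vertical axis), in 3 panels for the mir-58, double and quadruple mutants, from the authors' deposited table. Filled points have an adjusted p under 0.05, black bars are list medians and the grey band is the interquartile range of all listed genes. The adult cuticle collagens have medians of -2.595, 1.51 and 0.765 in the 3 panels, while the 8 genes described stay between -1.23 and 0.52.

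Some adult cuticle collagen genes were called in each mutant, and their part in the values above was not tested. The 6 furrow collagen genes, made early in each cycle, had no call in any mutant and medians of -0.155 (mir-58), 0.135 (double) and 0.105 (quadruple). Of 6 genes of the adult cuticle list, 3 were called lower in mir-58, 4 higher in the double and 2 higher in the quadruple mutant. The shares of all listed genes were 5.79% lower in mir-58, 10.5% higher in the double and 14.2% higher in the quadruple mutant. For the adult collagen gene col-19 the authors' deposited table gives -3.98 (mir-58), 4.03 (double) and 2.84 (quadruple), with adjusted p of 6.85e-06, 5.88e-22 and 3.35e-08. The collagen gene col-7 was called higher in the double mutant alone, with 5.2 and an adjusted p of 2.57e-04 by the authors' deposited table. It was not called in mir-58, at -0.37, or in the quadruple mutant, at 3.07. The list genes col-62 and rol-6 were not called in any mutant. By the authors' deposited table col-62 stood at -2.02 (mir-58), 1.76 (double) and 0.43 (quadruple), and rol-6 at -0.31, -0.41 and -0.22. The strut collagen genes bli-1 and bli-2, whose loss also blisters the cuticle, had -3.63 and -3.17 in mir-58 by the authors' deposited table (adjusted p = 6.60e-87 and 4.78e-66). Both were higher in the double mutant, with 0.79 and 1.26 by the authors' deposited table (adjusted p = 0.0218 and 2.04e-05). In the quadruple mutant bli-2 was higher and bli-1 was not called, with 0.92 and 0.61 by the authors' deposited table (adjusted p = 0.00312 and 0.084). In mir-58, then, bli-5, col-19, bli-1 and bli-2 were all lower. In the double mutant bli-5 was lower, and col-19, bli-1, bli-2 and col-7 were higher. In the quadruple mutant bli-5 was lower while col-19 and bli-2 were higher.

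Genes with values most like those of bli-5 and mlt-7 were found by Euclidean distance over the 3 log2 fold changes, which rest on shared wild-type samples. Nearest to bli-5 were C34E11.4 at a distance of 0.095 and ZK265.9 at 0.11. Of these, ZK265.9 was called lower in all 3 mutants, with -0.65, -1.18 and -1.27 by the authors' deposited table (adjusted p = 0.0134, 7.43e-05 and 3.43e-05), and C34E11.4 was not called. Nearest to mlt-7 were lbp-7, a lipid-binding protein gene, at 0.033 and T05H4.7 at 0.036, neither called in any mutant. Among the 8 genes, bli-3 was nearest to mlt-7 at a distance of 0.39, rank 1387 of 16308 listed genes, and mlt-7 was nearest to bli-5 at 1.08, rank 2155.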

How the data were processed

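RNA of 12 whole-animal samples was sequenced. The single deposited file holds the authors' comparisons, with log2 fold changes and adjusted p-values of 3 mutants against wild type as the deposited columns (per the file headers). The submitters' processing notes name DESeq and give no version number for it. Aligner, counting, genome build, strandedness and p-value adjustment are not given in the sources used here. The planned quasi-likelihood fit, replicate block, other normalisations, filters and leave-one-out fits were not run, since values per sample were not analysed here. Groups came from sample titles. A call is an adjusted p under 0.05. Alternatives were 0.01, a change of at least 1.5-fold, values relative to the median of all genes, and matching by listed name only, which was added after the data were seen. Names were matched without regard to case, or by the sequence name that RefSeq's WBcel235 table pairs with a symbol. Of 84 names in 9 lists, 77 were found, 18 by sequence name. Neighbours came from Ensembl release 115 of WBcel235, and no coordinates or sequences are given. The 8 genes and the lists were chosen with earlier results of these data known. Planned names were the 8, up to 4 per list and mutant by smallest adjusted p, and called genes of lists with at most 5 calls. The 2 nearest genes of each called member were planned as well. Some genes that this rule would name were left out of the Results, such as grh-1 and nhr-25 among the regulators. Outside this rule, tsp-15, pxn-1, ctl-2, nekl-2, mlt-2, mlt-4, rol-6 and the overlapping genes cope-1, lips-7, T27A1.3, F35G2.5 and F53G12.18 were named after their values were seen. Calls and distances were tested on simulated data. Python 3.11.15, numpy 2.4.6, pandas 2.3.3 and matplotlib 3.10.9 were used.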

Additional observations from a re-analysis of the deposited data

How the results depend on the processing

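No paired analysis was possible because values per sample were not analysed here, which also left out leave-one-out fits, other normalisations and filters. At an adjusted p under 0.01, the count among the 8 genes was 1 in the quadruple mutant (bli-5), 0 in the double and 0 in mir-58, against 2, 1 and 1 at 0.05. Among the list genes it gave 11 calls in the quadruple mutant, 9 in the double and 5 in mir-58, against 18, 13 and 8 at 0.05. A minimum of 1.5-fold changed no count among the 8 genes. Matching by listed name only left the counts among the 8 genes as they were and gave 8 list genes called in the double mutant, against 13 with sequence names. Relative to the median of all genes, 1 of the 8 values was below 0 in mir-58, where 4 were below 0 as deposited. Of 24 values of the 8 genes, 20 kept their sign under this change, and the 4 that did not were not called. Depth is unknown.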
